A study of Mus musculus with 6 samples.

Results

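The collagen gene family was followed in the cerebellum of 6 mice, 3 on a low-Mn diet and 3 on a normal-Mn diet. Members were all protein-coding genes whose GENCODE M21 symbol is Col, a number, the letter a and a number, which gave 44 of the 53715 mouse genes counted. They were sorted by general knowledge of the proteins into 11 fibrillar collagens, 8 collagens of basement membranes (type IV, Col15a1 and Col18a1) and 25 others. This rule used no measured value, but the family was chosen with earlier results of these data known.

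The mice were male C57BL/6 animals, 4 weeks old at purchase and called adult in the labels, and the labels name no engineered allele or further treatment. The low-Mn diet is labelled 0 ppm Mn and the normal-Mn diet 35 ppm Mn, and each was fed for 14 days. Polyadenylated RNA of the whole cerebellum was sequenced, with 1 library per mouse. Library totals were 14548336 to 17124327 expected counts in low-Mn mice and 18446701 to 21277469 in normal-Mn mice. Every low-Mn library was shallower than every normal-Mn library, so depth and diet cannot be told apart. The low-Mn libraries are headed only 1, 2 and 3 in the count table and were matched to the labelled replicates by that number. The methods call the mice biological replicates and a figure legend calls the replicates technical, in which case p-values measure only the spread between these libraries. Granule cell and Purkinje cell markers were present in every library: Gabra6, a GABA-A receptor subunit of granule cells, lay at 614.8 to 656.6 CPM (counts scaled to the library total), and Calb1, the calbindin of Purkinje cells, at 1185 to 1265 CPM. These genes were chosen for this check after their values were seen.

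Collagens are secreted or membrane-bound proteins in which 3 chains wind into a helix. Each chain carries long repeats of glycine followed by 2 other residues (Gly-X-Y), because only glycine fits inside the helix. Fibrillar collagens form the fibres of connective tissue, which in the brain lie mostly in the meninges and around large vessels. Type IV collagens form the network of basement membranes under vessel walls and at the brain surface. Other collagens link or coat these structures, span cell membranes or are made by neurons. Mn is a cofactor of enzymes that attach sugars to collagen hydroxylysine and of prolidase, which splits proline dipeptides released from collagen.

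The repeat can be read in the coding sequences of Col1a2 and Col18a1, the most abundant fibrillar and basement membrane genes per kb of main transcript. It can also be read in Col9a3, the most abundant of all, and in the vascular type IV gene Col4a1. The stretches below show unbroken repeats beside interrupted ones. Each is 90 bases of spliced coding sequence of the main GENCODE M21 transcript, given 5′ to 3′ on the coding strand, and capitals mark glycine codons in the frame of the repeat. Col1a2 codons 97 to 126 and Col9a3 codons 177 to 206 open the longest unbroken run of each gene. Col18a1 codons 801 to 830 and Col4a1 codons 151 to 180 lie around a break.
Col1a2: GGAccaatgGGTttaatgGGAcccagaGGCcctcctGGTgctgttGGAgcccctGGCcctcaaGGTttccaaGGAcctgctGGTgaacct
Col9a3: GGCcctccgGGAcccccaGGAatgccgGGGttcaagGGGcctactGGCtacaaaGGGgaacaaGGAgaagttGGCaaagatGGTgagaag
Col18a1: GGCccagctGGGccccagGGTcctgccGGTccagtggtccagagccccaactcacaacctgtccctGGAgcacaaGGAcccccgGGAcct
Col4a1: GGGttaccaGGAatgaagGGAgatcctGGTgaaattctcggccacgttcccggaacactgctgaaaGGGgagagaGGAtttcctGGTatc
On GRCm38 the stretches span chr6:4512406-4515516 (+), chr2:180605239-180605780 (+), chr10:77080727-77080816 (-) and chr8:11244498-11245075 (-). Introns lie inside these spans wherever they are longer than 90 bases. The first 2 stretches hold 10 glycine codons in frame and the last 2 hold 7.

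The fibrillar genes had the longest unbroken repeats, while the basement membrane genes lay within the range of the others. In 9 of the 11 fibrillar genes the longest run of Gly-X-Y codons was 337 to 344 triplets, from Col5a3 to Col3a1. Col24a1 and Col27a1, the other 2, had runs of 216 and 217. The 6 type IV genes had longest runs of 39 to 66 triplets and 23 to 27 runs of at least 3 triplets each. Col15a1 and Col18a1 had longest runs of 30, and the 3 type IX genes, as well as Col22a1, had 113. Col12a1, which codes mostly for fibronectin-type repeats, had 8.12% of its codons in runs, whereas Col9a3 had 85.6%. The largest share of 50-base words found in another gene was 6.17%, for Col9a3, and Col9a3 also had the largest share of exonic bases covered by another gene, 6.07%.

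Levels were compared between genes as CPM per kb of the main transcript, averaged over the normal-Mn mice. The family spanned a wide range, from Col9a3 at 26.0 to Col6a6 at 0.0352 CPM per kb. Col9a3, a chain of the fibril-coating collagen IX, and Col18a1, the basement membrane collagen whose end fragment is endostatin, stood above all others. Their normal-Mn ranges were 24.2 to 27.0 and 22.3 to 24.0 CPM per kb, which did not overlap. Col1a2, a chain of the main fibre collagen I, followed at 8.67 and Col9a2 at 6.91 CPM per kb, again with no overlap between neighbours. The place of Col1a2 depends on the length taken: per kb of all its exons it was at 3.73, below Col9a2 at 6.53, Col8a2 at 5.02, Col5a1 at 4.49 and Col23a1 at 4.19, while Col9a3 and Col18a1 stayed highest at 20.6 and 18.4. From Col8a2, a short-chain collagen of basement membranes, at 5.20 to Col23a1, a membrane-spanning collagen, at 4.25 CPM per kb, each gene overlapped its neighbours in the order. Col6a1, a type VI chain made by fibroblasts, came next at 3.84, then Col1a1 at 3.19 and Col4a1 at 3.02 CPM per kb. The lowest members were Col6a4, Col24a1, Col22a1, Col10a1 and Col6a6, from 0.0603 down to 0.0352 CPM per kb. Col10a1, the collagen of hypertrophic cartilage, had 0 to 4 counts in any library.

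**Figure D1:**
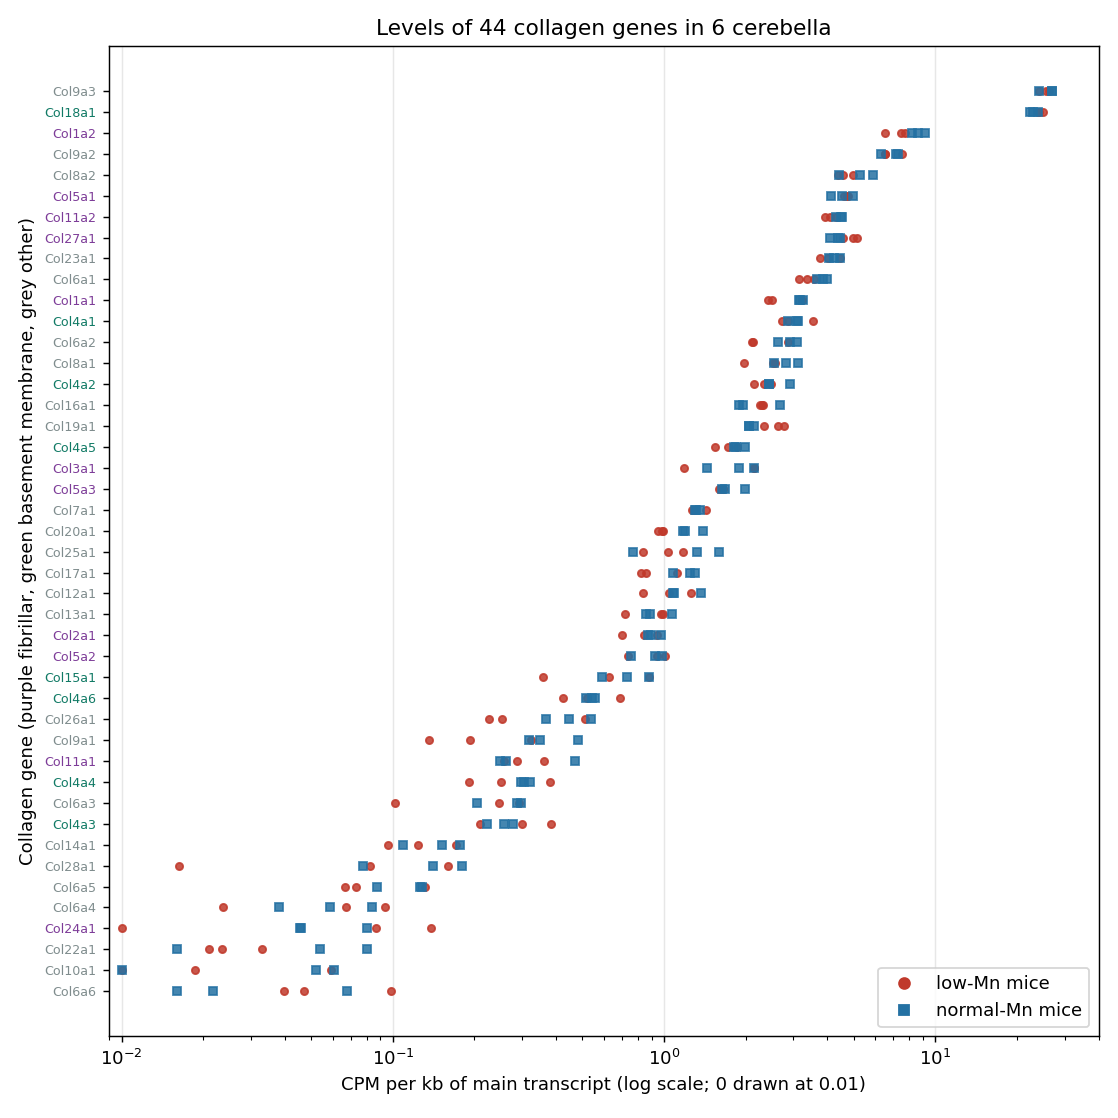
Level of each of the 44 collagen genes in each library as CPM per kb of main transcript, on a log axis, with low-Mn mice as red circles and normal-Mn mice as blue squares. Col9a3 and Col18a1 stand apart at the top, and the spread between libraries widens among the lowest genes.

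After filtering, 40 of the 44 collagens could be tested between the diets. Col6a4, Col6a6, Col10a1 and Col22a1 were too low, with 0 to 14 counts per library. No collagen passed the threshold of an adjusted p of 0.05: 0 of 40 in edgeR, against 96 of 16123 genes overall (0.595%), of which 0.18% were lower and 0.416% higher in low-Mn mice. DESeq2 and limma-voom also called 0 collagens, against 1.29% and 0.391% of all genes. With no low-count filter, edgeR called 1 collagen, Col1a2, against 1.57% of all genes. Upper quartile scaling, a mean of at least 100 counts and a replicate block called 0, against 0.558%, 0.907% and 0.794%. An unadjusted p under 0.05 was reached by 4 of 40 (10%), below the 12.1% of all genes. These were Col1a2 and Col17a1, lower in low-Mn mice (5.58% of all genes), and Col27a1 and Col19a1, higher (6.54%).

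The precision of the test bounds what these counts can hold. In simulated counts of the same libraries, with 16119 genes tested, edgeR found 55% of the 1.25-fold changes, 74.4% of the 1.5-fold changes and 88.3% of the 2-fold changes. Every simulated gene had the same spread beyond sampling noise (dispersion 0.00361). The changed genes were drawn from all tested genes, and the 1.25-fold changes were upward only. These shares therefore do not measure recovery among the collagens. For 26 of the 40 collagens the 95% interval of the fold change lay within 1.5-fold either way, against 72.9% of all genes. The fibrillar genes supplied 9 of these, the basement membrane genes 5 and the others 12. For the remaining 14, which averaged 8.50 to 111 counts per library, the interval reached past 1.5-fold.

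**Figure D2:**
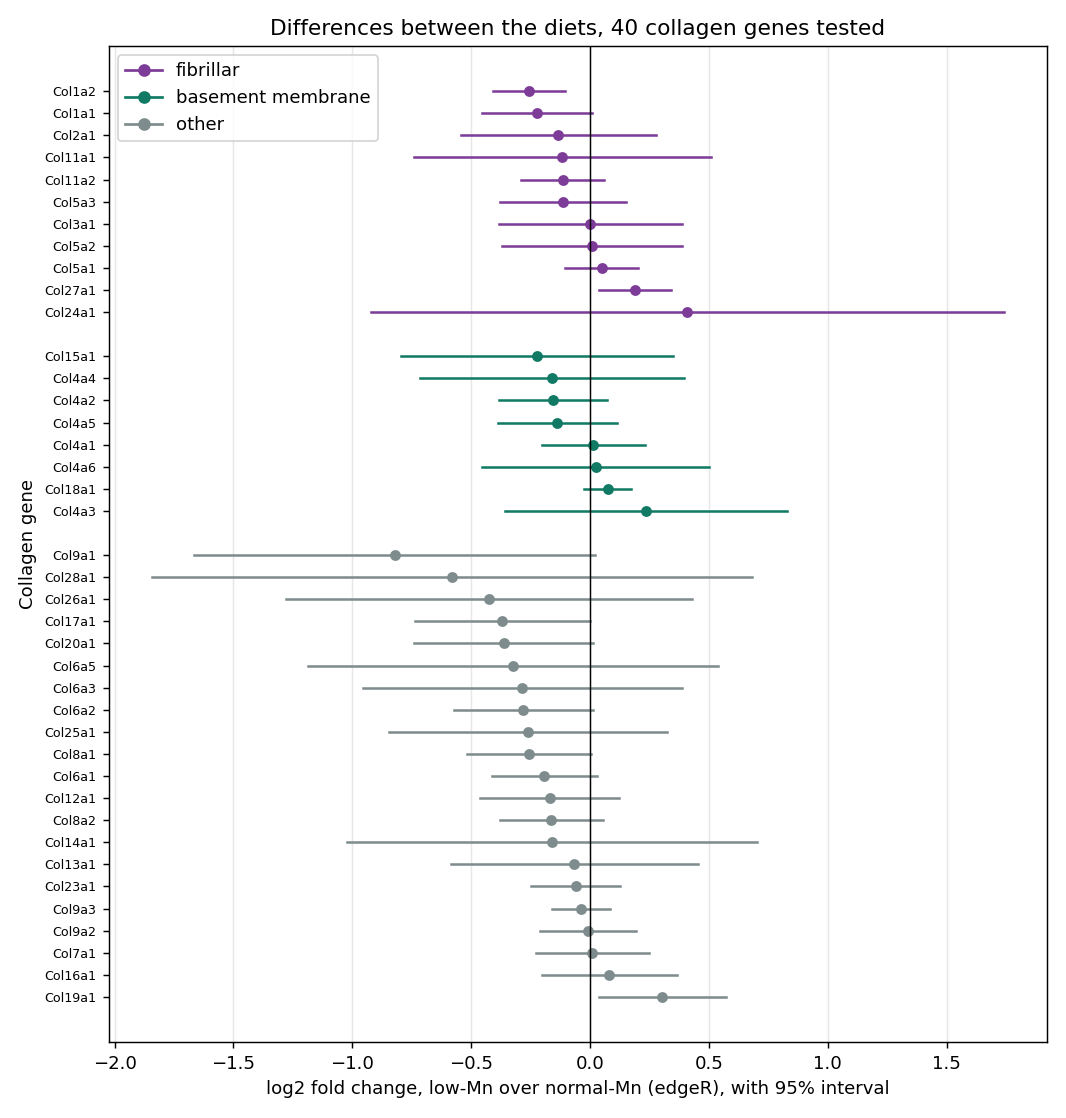
Fitted log2 fold change of low-Mn over normal-Mn for the 40 collagen genes tested, with 95% intervals, by class. All intervals but those of Col1a2, Col17a1, Col27a1 and Col19a1 cross 0, and the widest belong to Col24a1 and Col28a1.

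More collagens were fitted lower than higher in low-Mn mice. Of the 40 genes, 28 were fitted below 0 (70%) and 12 above, whereas 50.8% of all genes were below 0. The median log2 fold change was -0.13, against -0.0025 for all genes, and single values ran from -0.82 for Col9a1 to 0.41 for Col24a1, both with few counts. By class, 6 of 11 fibrillar, 4 of 8 basement membrane and 18 of 21 other collagens were below 0, with medians of -0.11, -0.06 and -0.19. The members are not independent replicates, and no p is given for these counts. In bulk tissue, fewer cells of a type and less RNA per cell cannot be told apart.

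The fibrillar collagens held the smallest p of the family. Col1a2 (ENSMUSG00000029661, chr6:4504814-4541544, +) had 41.3, 35.0 and 40.03 CPM in low-Mn replicates 1 to 3 and 43.8, 49.1 and 46.2 CPM in normal-Mn replicates 1 to 3. Every low-Mn value lay below every normal-Mn value. The log2 fold change was -0.25 ± 0.07 (SE, n = 3 per diet), with an edgeR p of 0.00224 that became 0.123 after Benjamini-Hochberg adjustment over all genes. Over 14 alternative settings its edgeR, limma-voom or DESeq2 adjusted p ran from 0.0256 with no low-count filter to 0.405 when normal-Mn replicate 2 was left out.

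Col1a1, which supplies the other 2 chains of collagen I, had 19.2, 14.4 and 14.9 CPM in low-Mn mice and 18.8, 19.3 and 18.6 CPM in normal-Mn mice. Low-Mn replicate 1 lay among the normal-Mn values and the other 2 lay below. The log2 fold change was -0.22 ± 0.11 (SE, n = 3 per diet; edgeR adjusted p = 0.428). Col3a1, the fibre collagen of vessel walls and loose tissue, had 11.97, 6.60 and 11.9 CPM against 11.98, 10.5 and 8.02 CPM. Its diets overlapped, although low-Mn replicate 2 lay below every normal-Mn value, and the log2 fold change was 0.0017. The 1.82-fold span of Col3a1 between the highest and lowest library was the widest among the 24 collagens with at least 100 counts on average. The median of that span was 1.32-fold for those 24 and 1.19-fold for all genes counted as well.

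Col27a1, a short-helix fibrillar collagen known from cartilage, was fitted in the other direction from Col1a2. It (ENSMUSG00000045672, chr4:63214004-63334991, +) had 39.2, 34.8 and 37.9 CPM in low-Mn mice and 33.8, 31.2 and 33.2 CPM in normal-Mn mice. All low-Mn values were above all normal-Mn values, by a narrow gap, with a log2 fold change of 0.19 ± 0.07 (SE, n = 3 per diet; edgeR adjusted p = 0.283). Col5a1, which sets fibre diameter with collagen I, had 40.2, 39.7 and 38.6 CPM against 41.7, 34.8 and 37.99 CPM. The low-Mn values lay inside the normal-Mn range. Col11a2, a chain of the cartilage collagen XI, had 23.3, 22.1 and 21.2 CPM against 23.3, 24.5 and 24.3 CPM, with a log2 fold change of -0.12 (95% interval -0.29 to 0.06). The remaining fibrillar genes, Col2a1, Col5a2, Col5a3, Col11a1 and Col24a1, had log2 fold changes from -0.13 to 0.41 and edgeR adjusted p from 0.782 to 0.989.

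Of the classes as sorted here, basement membrane collagens had the median log2 fold change nearest to no difference (-0.06). Of their 8 intervals, 5 lay within 1.5-fold either way. Col8a2 and Col19a1, also described here as collagens of basement membranes, were sorted among the others. Col18a1, the most abundant of them, had 134.5, 133.6 and 139.4 CPM in low-Mn mice and 128.1, 124.7 and 134.2 CPM in normal-Mn mice. The low-Mn values tended to be higher but overlapped normal-Mn replicate 3. The log2 fold change was 0.08 (95% interval -0.02 to 0.17; edgeR adjusted p = 0.562). Its interval is the narrowest of the family.

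Col4a1 and Col4a2 code for the chains of the common vascular type IV network and lie head to head on chromosome 8. Their annotated first exons overlap by 22 bases at chr8:11312805-11312826 in GRCm38.p6. The shared bases are shown because both transcripts start there, on opposite strands, and are written on the plus strand with no part marked.
Col4a1 and Col4a2: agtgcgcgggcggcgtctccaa
Col4a1 had 18.1, 19.0 and 23.5 CPM in low-Mn mice and 20.5, 20.4 and 18.9 CPM in normal-Mn mice. Col4a2 had 15.1, 13.9 and 16.0 CPM against 15.7, 15.7 and 18.8 CPM. For both the diets overlapped, with log2 fold changes of 0.01 (95% interval -0.20 to 0.23) and -0.15 (-0.38 to 0.07).

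Col4a5 and Col4a6, the chains of a second type IV network, form a similar pair on the X chromosome, with 1308 bases between their first GENCODE starts. The 100 bases before each of these starts, on the strand of the gene, are from the RefSeq promoters on GRCm38.p6 and are shown to set the 2 sides of this pair beside each other. They lie at chrX:141475285-141475384 (+) and chrX:141474077-141474176 (-). The letters GGGCGG were searched on both strands, and capitals mark the match on the other strand.
Col4a5: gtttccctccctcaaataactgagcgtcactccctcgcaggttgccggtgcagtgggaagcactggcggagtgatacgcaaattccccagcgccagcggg
Col4a6: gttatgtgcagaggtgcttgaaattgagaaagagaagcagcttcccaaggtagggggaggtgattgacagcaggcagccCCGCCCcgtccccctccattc
The match lies in the Col4a6 window and none was found in the Col4a5 window. Of 32851 promoters, 24.7% held these letters in the 100 bases before their RefSeq start. Col4a5 had 10.1, 11.3 and 12.1 CPM in low-Mn mice and 12.03, 13.0 and 11.8 CPM in normal-Mn mice. The values overlapped, with a log2 fold change of -0.14 (95% interval -0.39 to 0.11). Col4a6, at 2.82 to 4.59 CPM over all libraries, had a log2 fold change of 0.02.

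Col4a3 and Col4a4 belong to the network of the kidney filter and were low in these libraries. Col4a3 had 2.56, 1.79 and 3.27 CPM in low-Mn mice and 2.20, 2.38 and 1.90 CPM in normal-Mn mice. The low-Mn values enclosed the normal-Mn values. Their log2 fold changes were 0.24 for Col4a3 and -0.16 for Col4a4, and that of Col15a1, a relative of Col18a1 at the outer face of basement membranes, was -0.22. Their edgeR adjusted p ran from 0.806 to 0.868.

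**Figure D3:**
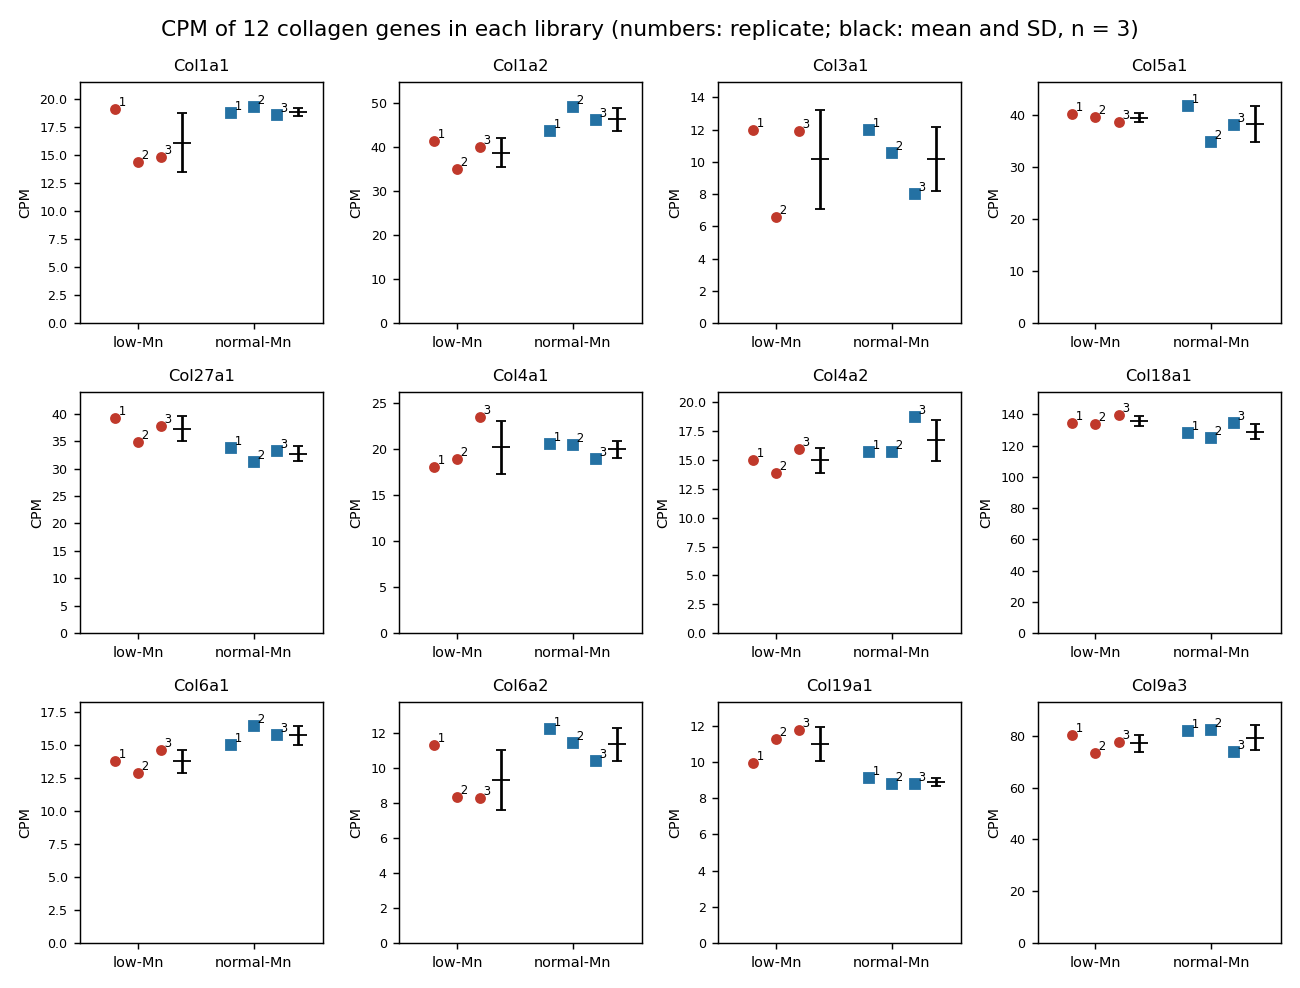
CPM of 12 collagen genes in each library, with replicate numbers beside the points and the mean and SD (n = 3) in black, from a zero baseline. Col1a2 and Col6a1 show all low-Mn points below the normal-Mn points, and Col27a1 and Col19a1 all above.

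Among the other collagens, the type VI chains, which form beaded filaments around cells, were all fitted below 0 where tested. Col6a1 had 13.8, 12.9 and 14.6 CPM in low-Mn mice and 15.02, 16.4 and 15.8 CPM in normal-Mn mice, without overlap. Its log2 fold change was -0.19 (95% interval -0.41 to 0.03; edgeR adjusted p = 0.483). Col6a2 and Col6a3, its partner chains, had log2 fold changes of -0.28 and -0.28, and Col6a5 had -0.32. The value of Col6a3 became 0.03 without low-Mn replicate 2, where it had 1.03 CPM against 2.06 to 2.999 CPM in the other 5 libraries.

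Type IX collagens coat fibrils in cartilage and the eye. Col9a3 had 80.2, 73.6 and 77.8 CPM in low-Mn mice and 82.0, 82.2 and 73.6 CPM in normal-Mn mice, with a log2 fold change of -0.04 (95% interval -0.16 to 0.08). Its partner Col9a2 had 22.0, 19.1 and 19.1 CPM against 21.3, 20.9 and 18.4 CPM, a log2 fold change of -0.0087. The diets overlapped for both. Col9a1, at 0.523, 1.24 and 0.740 CPM against 1.22, 1.33 and 1.84 CPM, had the lowest fitted value of the family, -0.82 (95% interval -1.67 to 0.02; edgeR adjusted p = 0.426). Low-Mn replicate 2 lay within the normal-Mn range, and the gene averaged 21.2 counts per library.

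Col19a1, a minor collagen of basement membrane zones that some neurons make, had the highest log2 fold change of the class. It (ENSMUSG00000026141, chr1:24261890-24587472, -) had 9.94, 11.3 and 11.8 CPM in low-Mn mice and 9.13, 8.76 and 8.78 CPM in normal-Mn mice. No low-Mn value reached down to the normal-Mn values. The log2 fold change was 0.31 ± 0.13 (SE, n = 3 per diet; edgeR adjusted p = 0.331).

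Among membrane-spanning collagens, Col17a1, which anchors epithelial cells to their basement membrane, had 6.22, 4.60 and 4.81 CPM in low-Mn mice and 7.25, 6.95 and 6.02 CPM in normal-Mn mice. Low-Mn replicate 1 exceeded normal-Mn replicate 3, and the other 2 low-Mn values lay below. The log2 fold change was -0.37 ± 0.18 (SE, n = 3 per diet; edgeR adjusted p = 0.412). Col23a1 had 21.3, 22.8 and 25.2 CPM against 25.3, 24.0 and 22.9 CPM, with overlap and a log2 fold change of -0.06. Col25a1, the collagen of amyloid plaques that neurons make, and Col13a1, found at nerve-muscle contacts, had -0.26 and -0.07, with intervals that reached 0.33 and 0.45.

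The short-chain collagens VIII form hexagonal sheets under endothelia. Col8a1 had 12.9, 10.1 and 13.1 CPM in low-Mn mice and 14.4, 15.9 and 13.0 CPM in normal-Mn mice. Col8a2 had 19.9, 18.9 and 21.6 CPM against 19.2, 25.6 and 22.9 CPM. Both overlapped between the diets, with log2 fold changes of -0.26 (95% interval -0.52 to 0.0047) and -0.16 (-0.38 to 0.06). Col20a1, a fibril-associated collagen, had 4.42, 4.26 and 4.44 CPM in low-Mn mice and 5.29, 5.38 and 6.23 CPM in normal-Mn mice. The diets did not overlap, but the gene averaged 91.8 counts and its edgeR adjusted p was 0.431.

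The remaining 6 of the other collagens tested were Col7a1, which anchors basement membranes to the tissue below, the fibril-associated Col12a1, Col14a1 and Col16a1, and Col26a1 and Col28a1. They gave log2 fold changes from -0.58 for Col28a1 to 0.08 for Col16a1. Across the family, values of the diets did not overlap for 3 genes lower in low-Mn mice (Col1a2, Col6a1 and Col20a1) and 2 higher (Col27a1 and Col19a1), 12.5% of 40. Among all genes, 8.32% lay apart and lower and 8.79% apart and higher.

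The ratio between chains of 1 collagen type overlapped between the diets in all 11 pairs compared. The ratio of Col1a2 to Col1a1, per kb of main transcript, was 2.39 to 2.99 over the 6 libraries. It was 1.14 to 1.42 when the lengths of all exons were used, so its size depends on the length taken. Col4a1 over Col4a2 ran from 0.984 to 1.43 and Col9a3 over Col9a2 from 3.50 to 3.91. Ratios with a low partner spread more widely, with Col9a3 over Col9a1 at 50.3 to 193 and Col6a1 over Col6a3 at 12.2 to 30.9. In all 6 libraries the fibrillar chain Col5a1 exceeded Col5a2, with a ratio of 4.47 to 6.56, and Col11a2 exceeded Col11a1, with a ratio of 9.17 to 18.2.

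**Figure D4:**
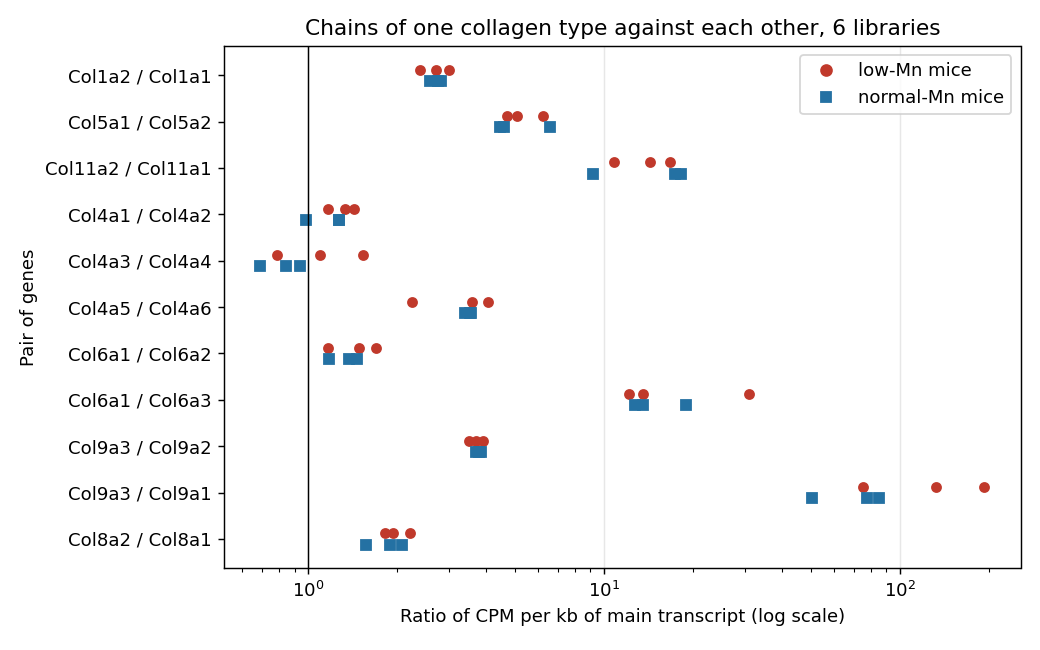
Ratio of CPM per kb between genes of one collagen type in each library, on a log axis, with low-Mn mice in red and normal-Mn mice in blue. The diets overlap in every pair, and Col9a3 over Col9a2 is among the tightest.

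Summed over the family, collagen transcripts took 644.8, 592.6 and 642.5 CPM in low-Mn mice and 650.2, 647.8 and 641.9 CPM in normal-Mn mice. Low-Mn replicate 2 was lowest, and the other 2 low-Mn libraries lay within the normal-Mn range. The mean of low-Mn over normal-Mn was 0.969, and 0.995 without low-Mn replicate 2. By class it was 0.961 for fibrillar, 1.02 for basement membrane and 0.938 for other collagens. The diets overlapped in every class. Low-Mn against normal-Mn sums were 175.7 to 198.4 against 191.8 to 199.4 CPM for fibrillar collagens. They were 186.1 to 204.9 against 185.9 to 196.8 CPM for basement membrane and 230.8 to 254.4 against 253.2 to 269.1 CPM for other collagens.

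Low-Mn replicate 2, the shallowest library, was the lowest of the 6 for 21 of the 40 collagens (52.5%), against 18.7% of all genes. Among the 24 collagens with at least 100 counts on average it was lowest for 10 (41.7%), against 18.1% of 11685 genes counted as well. Without it, 24 of 40 collagens were fitted below 0 in place of 28. Leaving out any other single library instead left 27 to 32 collagens below 0.

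Markers of the cell types that cover the cerebellum or line its vessels are given beside the collagens. Among all genes, 0.18% passed as lower and 5.58% were lower at an unadjusted p under 0.05. All 25 markers of meningeal fibroblasts tested were fitted below 0, 11 of them with an unadjusted p under 0.05, with a median log2 fold change of -0.21 and summed levels of 1682 to 2017 CPM in low-Mn mice and 1857 to 2078 CPM in normal-Mn mice. The 1 that passed was Igf2, a growth factor, at an edgeR adjusted p of 0.0432, and 64.5% of its exons overlap another gene. Bgn and Lum, small proteoglycans that bind collagen fibrils, had log2 fold changes of -0.46 and -0.55 and edgeR adjusted p of 0.0875 and 0.142. Of 18 choroid plexus markers, 17 were fitted below 0 and 4 passed as lower (Kl, Ace, Mfrp and Sostdc1), while 15 were lower at an unadjusted p under 0.05. The list had a median of -0.34 and sums of 2456 to 3029 against 2860 to 3460 CPM. Kl, the klotho protein, had a log2 fold change of -0.51 and an edgeR adjusted p of 0.00183. Of the exons of Mfrp, 37.9% overlap another gene. Leaving out low-Mn replicate 2 left 1 choroid plexus call and 0 meningeal calls, and leaving out normal-Mn replicate 2 left 2 and 0. The 20 endothelial markers had a median of 0.06 (sums 484.1 to 503.9 against 468.5 to 494.1 CPM). The 15 of 16 mural markers tested had a median of 0.14 (250.7 to 265.6 against 245.0 to 259.1 CPM). In both lists 0 passed in edgeR. At an unadjusted p under 0.05, 3 endothelial markers were higher, and of the mural markers 1 was lower and 1 higher. Among all genes, 6.54% were higher at that p. The 15 neuronal markers had a median of 0.01, with 0 passing and 1 higher at an unadjusted p under 0.05. Their sums were 14627 to 15127 against 14330 to 15003 CPM. By smallest p, the endothelial genes were Adgrl4, an adhesion receptor (log2 fold change 0.27), Pecam1, a junction protein (0.27), and Sox17, a transcription factor (0.40), with edgeR adjusted p from 0.269 to 0.356. The mural genes were Rgs5, a pericyte regulator of G proteins (0.22, edgeR adjusted p = 0.0969), Vtn, vitronectin (-0.18), and Tagln, a smooth muscle protein (0.35). Exons of Tagln overlap another gene over 67.9%. The neuronal genes were Neurod1, a granule cell transcription factor (0.18, edgeR adjusted p = 0.125), Gad1, which makes GABA (-0.08), and Snap25, a synaptic fusion protein (-0.08). No marker was at 0 in every library. The part of these cell types in the collagen values was not tested.

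Genes that make, bind and degrade collagen were counted as well. In edgeR, 0 of 36 biosynthesis genes tested (of 40) passed, with 4 lower and 3 higher at an unadjusted p under 0.05 (19.4%, against 12.1% of all genes) and a median log2 fold change of -0.01. The diets did not overlap for 3 lower and 9 higher of these genes, against 8.32% and 8.79% of all genes. Pcolce, which speeds the cutting of procollagen, had -0.35 and an edgeR adjusted p of 0.252. P4hb, a subunit of the enzyme that hydroxylates proline, had 107.2, 99.2 and 107.3 CPM in low-Mn mice and 114.6, 117.01 and 110.0 CPM in normal-Mn mice. Its diets did not overlap, at a log2 fold change of -0.12 and an edgeR adjusted p of 0.324. Fkbp10, a folding helper, had -0.35.

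Enzymes known to use Mn and the chaperone Serpinh1 were named after their values were seen. Pepd, the prolidase, had 36.3, 38.1 and 35.6 CPM in low-Mn mice and 34.8, 32.2 and 31.4 CPM in normal-Mn mice. All its low-Mn values were higher, at a log2 fold change of 0.16 and an edgeR adjusted p of 0.374. The sugar-adding enzymes Plod3, Colgalt1 and Colgalt2 had log2 fold changes of 0.0012, -0.07 and -0.34, with edgeR adjusted p from 0.635 to 0.997. Serpinh1, the collagen chaperone Hsp47, had 39.3, 39.0 and 38.2 CPM in low-Mn mice and 37.2, 34.7 and 35.3 CPM in normal-Mn mice. Here too the diets did not overlap, at a log2 fold change of 0.12 and an edgeR adjusted p of 0.484.

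Of 12 receptors tested (of 14, with the platelet receptor Gp6 at 0 in every library) 0 passed in edgeR, and 2 were lower at an unadjusted p under 0.05 (16.7%, against 5.58% of all genes). Taken singly, 1 of the 12 receptors, Adgrg1, had all low-Mn values below all normal-Mn values (8.33%, against 8.32% of all genes). The summed level of the receptors was 503.2 to 512.8 CPM in low-Mn mice and 531.8 to 565.6 CPM in normal-Mn mice. These sums did not overlap, and no p is given for this sum. Mag, a glycoprotein of myelin, took 203.2 to 237.3 CPM of it. The sum averaged 508.2 CPM in low-Mn mice and 543.7 CPM in normal-Mn mice, and Mag alone averaged 209.4 and 229.4 CPM. Mag had a log2 fold change of -0.13 (edgeR adjusted p = 0.262), Ddr1, a collagen-binding kinase, -0.13 (0.322) and Adgrg1, a receptor for collagen III, -0.11 (0.500).

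Of 22 proteins that share basement membranes with collagen IV, 0 passed in edgeR and 4 were lower at an unadjusted p under 0.05 (18.2%, against 5.58% of all genes). Smoc1, a secreted calcium-binding protein, had 12.4, 11.9 and 9.68 CPM in low-Mn mice and 15.4, 14.6 and 16.7 CPM in normal-Mn mice. The diets did not overlap, at a log2 fold change of -0.46 and an edgeR adjusted p of 0.0895. Lama4, a vascular laminin chain, had -0.57 and Hspg2, the proteoglycan perlecan, -0.35, with edgeR adjusted p of 0.188 and 0.202. Of 12 turnover genes tested (of 16) 0 passed in edgeR and 3 were lower at an unadjusted p under 0.05 (25%, against 5.58% of all genes). These were Timp2, an inhibitor of matrix proteases, at -0.16, and the membrane-bound proteases Mmp14 and Mmp15 at -0.25 and -0.21.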

How the data were processed

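The authors deposited expected counts per gene, estimated by RSEM and not normalized. STAR and mm10 are named for the mapping, and FastQC and DESeq2 appear in the submitters' processing notes too, all with no version. Between 7.13% and 7.75% of values were not whole, and counts were rounded. The 92 spike-in entries held 0 counts and were left out. In R 4.3.3, genes were kept by filterByExpr (minimum count 10, minimum total 15), scaled by TMM and tested with glmQLFit and glmQLFTest of edgeR 4.0.16 by diet alone, adjusting p by Benjamini-Hochberg across 16123 genes at a threshold of 0.05. CPM use TMM-scaled library totals. Standard errors are the size of the log2 fold change over the square root of F.

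Libraries on the same diet differed beyond sampling noise (chi-square per degree of freedom 3.57 to 7.56). The code was tested on simulated counts. Alternatives were RLE and upper quartile scaling, other filters, unrounded counts, limma-voom 3.58.1, DESeq2 1.42.0, the replicate number as a block and each replicate left out. Main transcripts are the longest coding ones in GENCODE M21, and promoters come from RefSeq on GRCm38.p6, which held 35 of the 44 collagens.

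The members and the gene lists were chosen with earlier results of these data known. Collagens shown in every library are the 4 of each class with the highest level per kb and the 4 with the smallest p, and Col3a1, Col6a1 and Col20a1 were added after their values were seen. From other lists, genes that passed and up to 3 with the smallest p are named, except where stated.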

Additional observations from a re-analysis of the deposited data

How the results depend on the processing

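The count of 0 collagens past the threshold held under all alternatives but 1, the lack of a filter on low counts, where Col1a2 passed (log2 fold change -0.26, edgeR adjusted p = 0.0256). Of 544 collagen values under 14 alternatives, 509 kept their direction and side of the threshold, 34 changed direction and 1 passed, and 25 of 40 genes kept their direction throughout. The cause was not tested. With upper quartile scaling Col7a1 became -0.0026, Col5a2 -0.0028 and Col3a1 -0.0095, and Col3a1 also became -0.0061 without a filter, -0.0020 with a mean of at least 100 counts and -0.023 in limma-voom, where Col24a1 became -0.17. Upper quartile scaling moved the median of all genes to -0.0117.

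Leaving out 1 library at a time gave these ranges of log2 fold change for genes that changed direction: Col14a1 -0.41 to 0.011, Col7a1 -0.047 to 0.046, Col5a2 -0.096 to 0.13, Col3a1 -0.14 to 0.23, Col5a1 -0.015 to 0.12, Col11a1 -0.28 to 0.25, Col24a1 -0.34 to 0.97, Col15a1 -0.55 to 0.043, Col9a2 -0.082 to 0.031, Col4a6 -0.19 to 0.17, Col4a1 -0.11 to 0.091, Col16a1 -0.012 to 0.25, Col6a3 -0.57 to 0.034, Col13a1 -0.14 to 0.066 and Col4a4 -0.48 to 0.035.

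The 4 collagens with an unadjusted p under 0.05 became 8 without a filter, and 7 or 1 when low-Mn replicate 1 or normal-Mn replicate 2 was left out. The share of all genes at that p was counted only in the main fit (12.1%). These changed counts therefore cannot be set against all genes. With a mean of at least 100 counts, 16 of 24 collagens were fitted below 0. Genes called overall numbered 424 without a filter, 63 in limma-voom, 156 in DESeq2 and 37 to 93 with 1 library left out (47 leaving out low-Mn replicate 1, 37 leaving out low-Mn replicate 2, 45 leaving out normal-Mn replicate 2). Without a filter, calls rose to 12 choroid plexus, 4 meningeal, 1 mural, 1 neuronal and 1 basement membrane partner gene. Limma-voom called 0 meningeal genes. With 1 library left out, choroid plexus calls were 1 to 6 (1 leaving out low-Mn replicate 2, and 2 leaving out low-Mn replicate 3 or normal-Mn replicate 2), meningeal 0 to 1 (0 leaving out low-Mn replicate 2 or 3 or normal-Mn replicate 1 or 2) and neuronal 0 to 1 (1 leaving out normal-Mn replicate 1).

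Deviations of same-numbered replicates of the diets were nearly uncorrelated (0.0297, -0.0238 and 0.0361). Such values cannot show whether the mice were matched by number, and the labels name no pairing. With the replicate block, 0 collagens and 128 genes passed, and Col3a1 became -0.0182.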
